A study of Mus musculus with 35 samples.

Results

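The 4 lung lavage sorts of this mouse series, MP_BAL, SatM_BAL, mSR1dullCC1dull_BAL and F480 posi_BAL, were compared gene by gene. Each was measured on 1 array, and together they make up 4 of the 35 arrays. For each sort, the genes set apart were those with a log2 value of 10 or more that lay 3 or more, which is 8-fold or more, above all of the other lung sorts. A further group held the genes at 10 or more in both SatM_BAL and F480 posi_BAL and 3 or more lower in MP_BAL. Of 11553 genes that lay over the lowest recorded value in at least 1 lung array, 14 were set apart in MP_BAL (0.121%), 0 in SatM_BAL (0%), 44 in mSR1dullCC1dull_BAL (0.381%) and 1 in F480 posi_BAL (0.00866%). The shared group held 19 genes (0.164%). These 78 genes are described below, and since 1 array a sort allows no test, no difference between the sorts carries a test.

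All 4 sorts came from male C57BL/6J mice, 8 weeks old, with the tissue given as lung, and BAL is the usual abbreviation of bronchoalveolar lavage. No treatment is given for any of them, and the cells were collected by flow cytometry. The label of MP_BAL and that of F480 posi_BAL give the same cell type, a residential macrophage, and how their gates differed is not given in the sources used here. SatM_BAL is the lung sort of SatM, the segregated-nucleus-containing atypical monocyte, whose label ties it to fibrosis. The label of mSR1dullCC1dull_BAL calls it a monocyte that is negative for f480 and Ly6c, positive for Mac1 and dull for Msr1 and Ceacam1. Whether a sort pooled several mice is not given, so each value describes 1 RNA sample.

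Several kinds of phagocyte and antigen-presenting cell live in and around the air spaces. Alveolar macrophages lie in the air space, take up surfactant and carry a lipid-handling programme that depends on the nuclear receptor PPAR-gamma. Macrophages of the tissue between the air spaces, and those that derive from monocytes, are known for the C1q complement genes, apolipoprotein E and the chemokine receptor Ccr2. Conventional dendritic cells are known for the factor Zbtb46 and the receptor Flt3, and once activated for Ccr7, which guides them to lymph nodes.

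The starts of a few member genes are shown first, so that the groups can be seen at the level of sequence: Marco from MP_BAL, Flt3 from mSR1dullCC1dull_BAL, and C1qb, C1qc and C3ar1 from the genes shared by SatM_BAL and F480 posi_BAL. Each is the 250 bases before the first listed start of the gene in RefSeq on GRCm38.p6, written 5′ to 3′ on the strand of the gene, which is the minus strand for all 5. The windows are chr1:120505025-120505274 for Marco, chr5:147400490-147400739 for Flt3, chr4:136886201-136886450 for C1qb, chr4:136892915-136893164 for C1qc and chr6:122856158-122856407 for C3ar1. Capitals mark a match, on either strand, to GAGGAA, the core bound by the myeloid factor PU.1, or to TGANTCA, the AP-1 site.
Marco: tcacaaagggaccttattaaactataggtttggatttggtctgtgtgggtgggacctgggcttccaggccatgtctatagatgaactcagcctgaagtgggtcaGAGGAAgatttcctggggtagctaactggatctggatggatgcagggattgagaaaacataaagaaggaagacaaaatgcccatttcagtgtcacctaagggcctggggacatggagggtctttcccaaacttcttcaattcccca
Flt3: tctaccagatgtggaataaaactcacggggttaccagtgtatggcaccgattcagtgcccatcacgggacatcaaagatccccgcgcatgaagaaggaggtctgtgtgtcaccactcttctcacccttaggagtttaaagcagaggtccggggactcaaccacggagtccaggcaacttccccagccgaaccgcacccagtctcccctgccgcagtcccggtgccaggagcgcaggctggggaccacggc
C1qb: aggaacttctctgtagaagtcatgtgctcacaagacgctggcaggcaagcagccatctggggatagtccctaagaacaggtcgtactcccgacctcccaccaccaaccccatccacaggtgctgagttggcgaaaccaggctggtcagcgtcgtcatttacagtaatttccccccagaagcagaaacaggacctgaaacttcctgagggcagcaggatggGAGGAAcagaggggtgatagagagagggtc
C1qc: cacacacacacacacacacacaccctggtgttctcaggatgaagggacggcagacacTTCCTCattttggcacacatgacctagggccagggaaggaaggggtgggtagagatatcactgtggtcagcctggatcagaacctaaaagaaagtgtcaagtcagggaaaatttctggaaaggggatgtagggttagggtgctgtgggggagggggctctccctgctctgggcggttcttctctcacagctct
C3ar1: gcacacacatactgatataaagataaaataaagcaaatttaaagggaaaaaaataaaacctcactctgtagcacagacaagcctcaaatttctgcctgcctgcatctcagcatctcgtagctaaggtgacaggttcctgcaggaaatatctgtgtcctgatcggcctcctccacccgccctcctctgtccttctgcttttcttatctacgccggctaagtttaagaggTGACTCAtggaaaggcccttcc
The PU.1 core stood in the windows of Marco, C1qb and C1qc, the last in the reverse orientation. The AP-1 site stood in that of C3ar1. A promoter was found for 62 of the 78 members. The PU.1 core was in 23.1% of the 27025 promoters of the whole table, in 5 of 11 MP_BAL members, 5 of 33 mSR1dullCC1dull_BAL members and 5 of 17 shared members. The AP-1 site was in 6.87% of all promoters and in 1, 3 and 4 members of the same groups. The PU.1-IRF composite motif, which can overlap the PU.1 core, was in 2.38% of all promoters and in 0 members. The C/EBP site TTGCNNAA was in 9.55% of all promoters and in 1, 3 and 0 members. A match is a description of these letters only, and no test was made of these counts.

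The deposited values are log2 levels per probe set with a common floor of 2.30, and each lung array had 48.3% to 49.1% of its probe sets on that floor. A value at the floor has no order, so a difference against it is a lower bound. The 4 arrays had medians of 2.32 to 2.34 and upper quartiles of 6.39 to 6.46. With no second lung array, the spread of repeated arrays had to come from 9 duplicate pairs of other cell types: 0.009% to 2.70% of the genes differed by 3 or more within a pair, with a median of 0.559%. Between SatM_BAL and F480 posi_BAL, 0.744% of genes did, which lies inside that range. The other lung pairs lay above it, at 3.04% for MP_BAL and F480 posi_BAL, 4.09% for SatM_BAL and mSR1dullCC1dull_BAL, 4.11% for MP_BAL and SatM_BAL, 6.13% for mSR1dullCC1dull_BAL and F480 posi_BAL, and 8.3% for MP_BAL and mSR1dullCC1dull_BAL. Differences between single lung genes carry no error of their own, and only large ones are described.

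The genes of the sort markers were compared with the labels. Msr1, a scavenger receptor, read 10.83 in MP_BAL, 11.09 in SatM_BAL, 4.53 in mSR1dullCC1dull_BAL and 11.99 in F480 posi_BAL, so the sort labelled Msr1-dull was the low one. Adgre1, the gene of the f480 antigen, read 10.16, 9.50, 6.24 and 10.48 in the same order, lowest in the sort labelled f480-negative. Ceacam1 read 7.76, 9.02, 7.36 and 8.70, a range of only 1.66. Itgam, the gene of Mac1, read 2.30, 3.17, 2.58 and 4.45, near the floor also in the sort labelled Mac1-positive. Its highest value on the arrays outside the lung was 8.45, in neutrophils. It read only 4.28 and 5.59 in inflammatory monocytes and 3.73 and 2.83 in eosinophils, so low values were not particular to the lung sorts. Csf1r, the receptor for macrophage colony-stimulating factor, was at 11.83 or more and Itgax, the gene of CD11c, at 10.43 or more in all 4 sorts. The Ly6C genes share a probe set and were not analysed.

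The 4 marker genes divided the sorts. Car4, a carbonic anhydrase of alveolar macrophages, read 12.05 in MP_BAL, 6.50 in SatM_BAL, 3.46 in mSR1dullCC1dull_BAL and 6.67 in F480 posi_BAL. Zbtb46 read 3.93, 6.70, 12.28 and 4.03, high in mSR1dullCC1dull_BAL alone. C1qb read 8.73, 14.19, 10.77 and 14.18, and Arg1, the arginase of alternatively activated macrophages, read 3.01, 10.001, 2.33 and 11.88. Both were high in SatM_BAL and F480 posi_BAL, whose C1qb values differed by 0.01 and whose Arg1 values differed by 1.87. Of the remaining sorts, MP_BAL had the lowest C1qb and mSR1dullCC1dull_BAL the lowest Arg1.

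**Figure D1:**
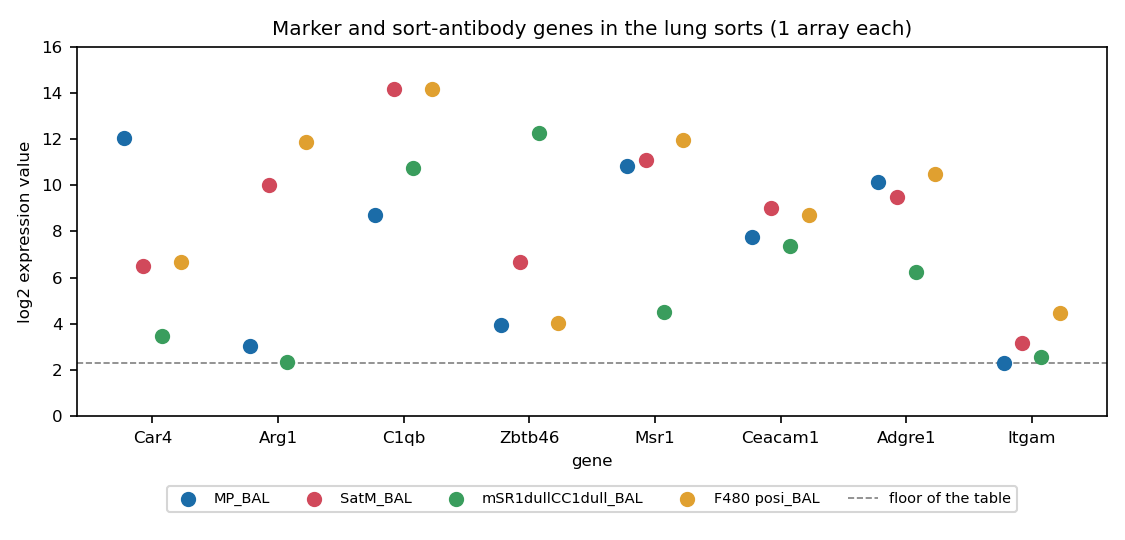
Log2 values of the marker and sort genes on the 4 lung arrays, 1 point per array, with the floor of 2.30 as a line. Car4 is highest in MP_BAL (12.05), Zbtb46 in mSR1dullCC1dull_BAL (12.28), and C1qb and Arg1 are high in SatM_BAL and F480 posi_BAL.

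MP_BAL was set apart by genes of the alveolar macrophage. Besides Car4, Marco, the scavenger receptor that binds inhaled particles, read 11.33 in MP_BAL, 6.01 in SatM_BAL, 2.77 in mSR1dullCC1dull_BAL and 4.59 in F480 posi_BAL. Siglecf, a sialic acid-binding receptor of alveolar macrophages and eosinophils, read 11.35, 7.26, 8.05 and 6.00 in that order. Fabp1, which carries fatty acids, read 10.64, 5.84, 5.14 and 2.90. In each of these the other 3 sorts lay well below MP_BAL, and none of them held the next place throughout.

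Other members of the MP_BAL group serve metabolism and transport. Pdk4, the kinase that turns pyruvate away from the citric acid cycle, read 10.82 in MP_BAL and 4.87 to 6.03 in the others. Slc39a2, a zinc importer, read 10.35 against 7.24 in F480 posi_BAL, 4.70 in SatM_BAL and 2.76 in mSR1dullCC1dull_BAL. Flvcr2, a transporter of the feline leukaemia virus receptor family, read 10.12 against 2.30 to 5.82. Adcy3, an adenylate cyclase, read 10.54 against 3.96 to 5.40. Vstm2a had the widest gap: it read 10.89 in MP_BAL and lay at the floor in the other 3 sorts, which makes the difference at least 386-fold. Prom1 (11.55), Perp (12.32) and Afap1 (12.99) completed the group, with next values of 6.74, 7.89 and 9.45.

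Genes known from epithelium were also among the MP_BAL members. Scgb1a1, the secretoglobin of airway club cells, read 13.43 in MP_BAL, 8.27 in SatM_BAL, 5.57 in mSR1dullCC1dull_BAL and 6.39 in F480 posi_BAL. Krt19, a keratin listed here under both alveolar macrophages and epithelium, read 11.72, 5.01, 2.30 and 2.73. Of 22 measured lung epithelium genes, 11 had a range of 3 or more over the sorts, against 10.6% of all genes, and MP_BAL was the highest in 6 of them, against 3.43% of all genes: Scgb1a1, Krt19, Scgb3a2 at 7.92, Krt18 at 7.68, Krt8 at 6.43 and Cldn18 at 6.35. Of the defining genes, Sftpb, Foxj1 and Nkx2-1 were at the floor in all 4 sorts. Sftpc (3.63), Sftpa1 (3.48) and Aqp5 (4.19) lay somewhat over it in MP_BAL and at 2.39 or less in the other sorts. The summed linear level of the list was 17783 in MP_BAL and 8182 to 10413 in the others. Scgb1a1 and Krt19 are members chosen for being high in MP_BAL, and without them it was 3339 in MP_BAL and 8092 to 10361 in the others. Pdpn (12.37 in SatM_BAL, 12.65 in F480 posi_BAL) and Cdh1 (12.61 in mSR1dullCC1dull_BAL) made up much of these other sums. Cdh1 also reached 13.50 outside the lung, in SMP. The median without the members was 4.61 in MP_BAL and 2.30 in each of the others. Of the 20 genes left, 9 had a range of 3 or more. MP_BAL was the highest in 4, mSR1dullCC1dull_BAL in 3, and SatM_BAL and F480 posi_BAL in 1 each. The part of epithelial RNA in the MP_BAL values was not tested.

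Of 26 measured alveolar macrophage genes, 22 had a range of 3 or more (10.6% of all genes), and MP_BAL was the highest in all 22 (3.43%). Without the 7 member genes on the list, this was so of 15 of 19. The median of the list was 11.34 in MP_BAL, 8.68 in F480 posi_BAL, 8.20 in SatM_BAL and 5.17 in mSR1dullCC1dull_BAL. Without the 7 members the medians were 11.24, 10.43, 9.13 and 7.22 in that order. By pairs, MP_BAL was 3 or more above SatM_BAL in 16 of the 26 (2.09% of all genes), above F480 posi_BAL in 12 (1.64%) and above mSR1dullCC1dull_BAL in 21 (3.91%). The rule fixed these differences for the 7 members, and without them the counts were 9, 5 and 14 of 19. Part of the list was thus shared with F480 posi_BAL: Atp6v0d2, a subunit of the proton pump, read 12.78 in MP_BAL and 11.91 in F480 posi_BAL but 8.40 in SatM_BAL. Pparg, the gene of PPAR-gamma, read 9.34 in MP_BAL, 7.29 in F480 posi_BAL, 5.19 in SatM_BAL and 2.80 in mSR1dullCC1dull_BAL. F7, coagulation factor VII, read 11.11, 10.48, 9.13 and 2.30 in that same order. The receptor chains for GM-CSF did not divide the sorts, with Csf2ra at 10.26 to 11.27 and Csf2rb at 12.35 to 12.92.

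**Figure D2:**
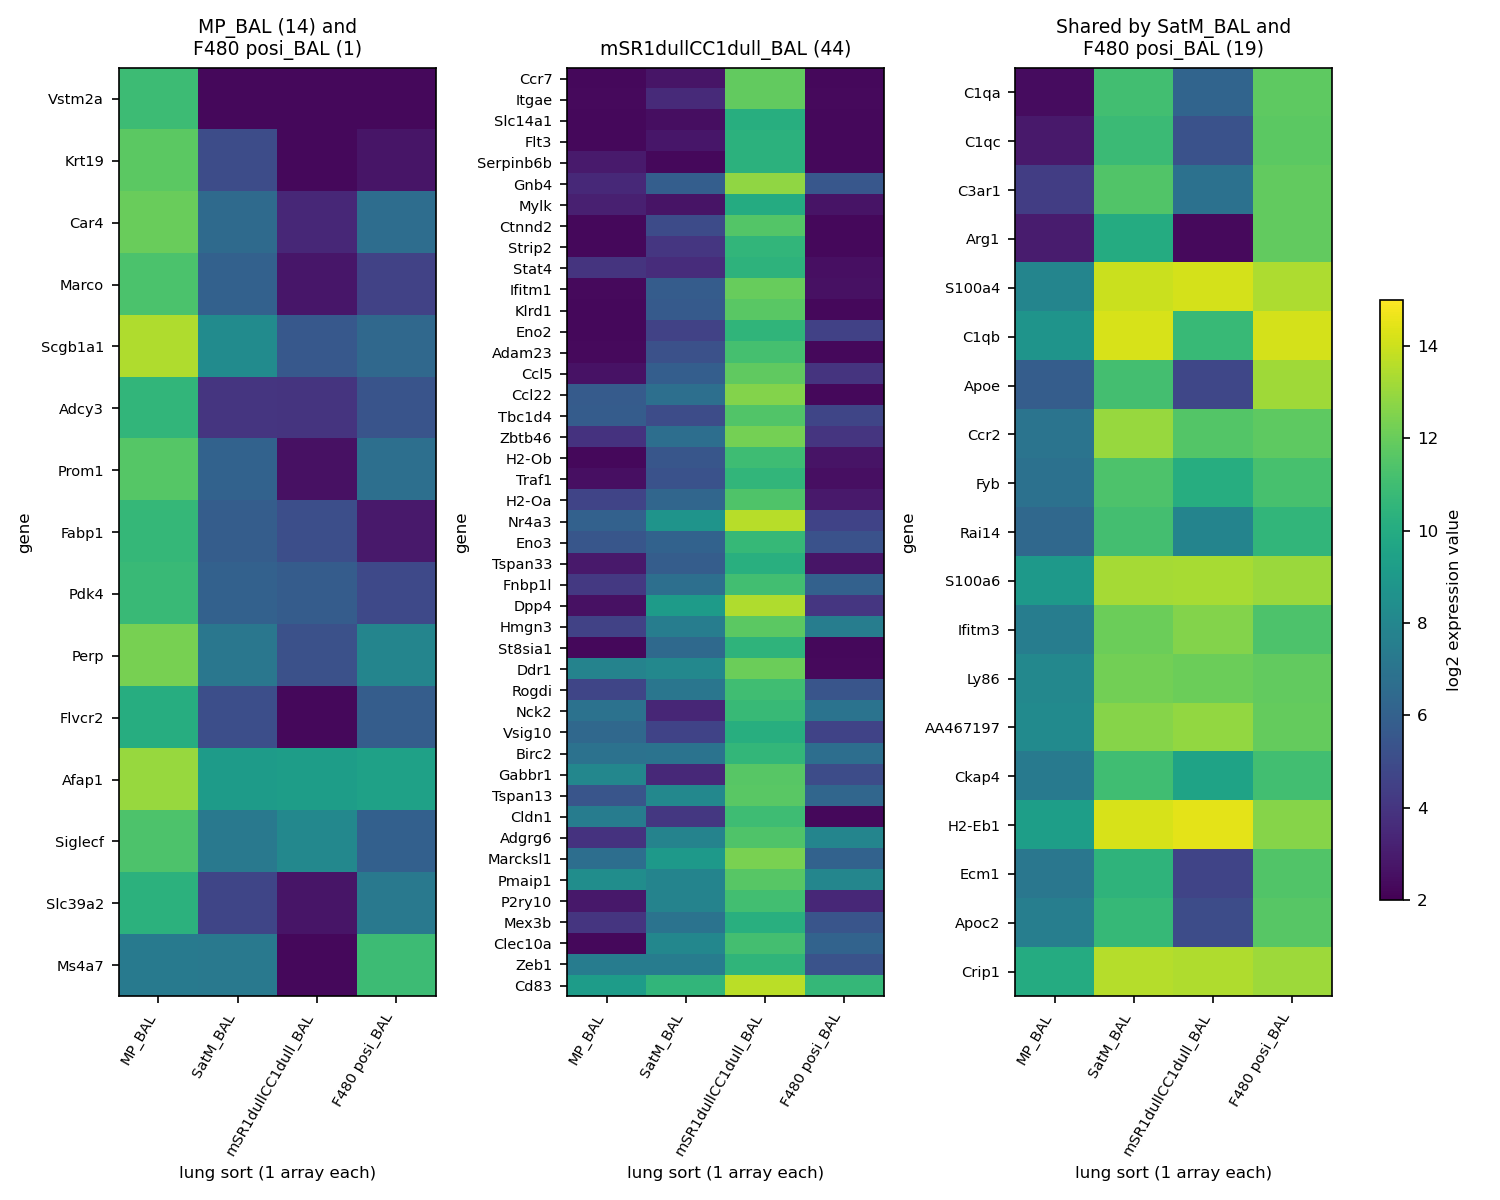
Log2 values of the member genes on the 4 lung arrays, as colours from dark (low) to yellow (high), with a row per gene and a column per sort. The panels hold the MP_BAL genes (14) with the F480 posi_BAL gene (1), the mSR1dullCC1dull_BAL genes (44) and the genes shared by SatM_BAL and F480 posi_BAL (19). The named sort is high by the rule, and in the shared panel many genes are high in mSR1dullCC1dull_BAL too.

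The group of mSR1dullCC1dull_BAL was the largest, and 6 of its 44 genes were on the dendritic cell list: Ccr7, Itgae, Flt3, Dpp4, Ccl22 and Zbtb46. Ccr7 read 11.89 there, 2.73 in SatM_BAL and 2.30 in both MP_BAL and F480 posi_BAL. Itgae, the integrin chain CD103, read 11.86 against 3.56 in SatM_BAL and 2.35 in both MP_BAL and F480 posi_BAL. Flt3 read 10.36 against 2.77 in SatM_BAL and 2.30 in both of these. Dpp4, the surface peptidase CD26, read 13.43 against 9.15 in SatM_BAL, 4.06 in F480 posi_BAL and 2.58 in MP_BAL. For all 4 genes SatM_BAL held the next place, far below for Ccr7, Itgae and Flt3.

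Signals and presentation genes formed a further part. Ccl22, a chemokine that draws T cells, read 12.58 in mSR1dullCC1dull_BAL, 6.74 in SatM_BAL, 5.75 in MP_BAL and 2.30 in F480 posi_BAL. Ccl5, another T cell chemokine, read 11.81, 5.91, 2.65 and 3.98 in that order. H2-Oa and H2-Ob, the chains of the class II regulator DO, read 11.44 and 10.96 there against next values of 6.31 and 5.48, both in SatM_BAL. Cd83, a surface protein of mature dendritic cells, read 13.67 against 10.66 in F480 posi_BAL, 10.54 in SatM_BAL and 9.19 in MP_BAL, and its gap of 3.01 was the smallest in the group. Clec10a, a galactose-binding lectin, read 11.11 against 8.03 in SatM_BAL, 6.12 in F480 posi_BAL and 2.30 in MP_BAL.

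Signalling and nuclear genes among the 44 included Stat4, which acts downstream of interleukin-12 (10.39, next 3.93), Traf1, an adaptor of TNF receptors (10.54, next 5.28), Nr4a3, an orphan nuclear receptor (13.59, next 8.71), Birc2, an inhibitor of apoptosis (10.59, next 6.94), and Pmaip1, the pro-apoptotic NOXA (11.64, next 8.38). Eno2 and Eno3, enolases of glycolysis, read 10.53 and 10.71 with next values of 4.56 and 6.07. Slc14a1, a urea transporter (10.16), Serpinb6b, a serpin (10.35), Gnb4, a G protein subunit (12.83), Ctnnd2, a catenin (11.51), Adam23 (11.16), Strip2 (10.57), Mylk, the myosin light chain kinase (10.02), Ifitm1, an interferon-induced membrane protein (11.996), and Tbc1d4, a Rab-regulating protein (11.46), each stood 5.66 or more above the next sort, as did Klrd1, a lectin-like receptor of NK cells (11.68, next 5.68 in SatM_BAL). The remaining members lay 3.02 to 4.33 above it: Tspan33, Fnbp1l, Hmgn3, St8sia1, Ddr1, Rogdi, Nck2, Vsig10, Gabbr1, Tspan13, Cldn1, Adgrg6, Marcksl1, P2ry10, Mex3b and Zeb1.

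Of 22 measured dendritic cell genes, 15 had a range of 3 or more, and mSR1dullCC1dull_BAL was the highest in all 15, against 4.62% of all genes. Without its 6 member genes, this was so of 9 of 16. It was 3 or more above F480 posi_BAL in 15 of the 22 (3.41% of all genes) and above SatM_BAL in 12 (2.35%). The rule fixed both differences for the 6 members, and without them the counts were 9 and 6 of 16. The list had a median of 10.46 in mSR1dullCC1dull_BAL, 5.36 in SatM_BAL, 3.54 in F480 posi_BAL and 2.66 in MP_BAL. Without the members the medians were 9.35, 5.36, 3.86 and 3.67 in that order. Batf3, a factor of CD103-type dendritic cells, read 9.03 in mSR1dullCC1dull_BAL against 5.10, 3.59 and 2.75 in SatM_BAL, F480 posi_BAL and MP_BAL. Genes that mark particular dendritic cell types were uneven in this sort. Besides Itgae and Batf3, Kmo read 9.93 and Cd209a 9.65 there, while Xcr1 read 4.9975, Siglech 4.19, and Cd207 lay at the floor. Irf4, which was high in mSR1dullCC1dull_BAL at 12.26, was nearly as high in SatM_BAL at 11.89, and read 8.98 in F480 posi_BAL and 6.91 in MP_BAL.

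The MHC class II list moved in the same order. Of 16 measured genes, 11 had a range of 3 or more (10.6% of all genes), all highest in mSR1dullCC1dull_BAL (4.62%). Without the 4 member genes this was so of 7 of 12. The list medians were 13.34 there, 11.33 in SatM_BAL, 10.30 in F480 posi_BAL and 9.23 in MP_BAL. Without the members they were 13.40, 12.46, 10.47 and 9.40 in that order. Ciita, the master activator of class II genes, read 9.17 in mSR1dullCC1dull_BAL, 7.18 in SatM_BAL, 3.45 in F480 posi_BAL and 2.34 in MP_BAL. The class II chain H2-Ab1 read 14.22, 13.84, 12.25 and 9.53, and the co-stimulator Cd40 read 10.47, 8.25, 7.48 and 3.45. SatM_BAL thus held the second place in all 3 genes and MP_BAL the lowest.

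The label of this sort is monocyte, while its dendritic cell list was high. The classical monocyte list was uneven in this sort: S100a4 read 14.17, Ly86 12.06, Ccr2 11.53, Ms4a6c 10.84 and Plac8 9.26, while Mgst1 read 6.07, Hp 3.62, F13a1 2.86 and Vcan 2.30. Cx3cr1 read 4.37. Markers of lymphocytes and granulocytes were looked at in the same array. Of 12 measured NK cell genes, 4 had a range of 3 or more and were highest here, where 4.62% of all genes were so: Klrd1 at 11.68, Ccl5 at 11.81, Klrk1 at 8.68 and Klre1 at 6.94. The NK genes Ncr1, Gzma, Gzmb, Eomes and Il2rb lay at the floor in this sort. The summed linear level of the NK list was 7525 there and 91 to 194 in the other sorts. Klrd1 and Ccl5 are members chosen for being high here, and without them it was 661 there and 76 to 83 elsewhere. That of the T cell list was 335 there and 61 to 84 elsewhere, with Cd3e at 6.40. Of 13 measured B cell genes, 5 had a range of 3 or more and were highest here (4.62% of all genes). They were Ighm at 7.36, Fcrla at 6.05, Cd79b and Pou2af1 at 5.52 and Ebf1 at 5.34. Pax5, Blk, Cr2 and Fcer2a lay at the floor in all 4 sorts. Of 8 measured eosinophil genes, Prg2 (6.99) and Alox15 (8.26) were highest in this sort with a range of 3 or more (4.62% of all genes). Prg3, Epx, Ccr3 and Il5ra lay at the floor in all 4 sorts. Of 19 neutrophil genes, Il1r2 (9.18) and S100a9 (7.88) were highest here by such a range, while MP_BAL and F480 posi_BAL were the highest in 3 each. Kit (8.91) was the only such gene of 13 on the basophil and mast cell list. The part of these cells in the values was not tested, and in a bulk sort a smaller share of a cell type and less RNA per cell cannot be told apart.

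The 19 genes shared by SatM_BAL and F480 posi_BAL held the 3 chains of C1q, the first component of the classical complement pathway. C1qa read 11.07 in SatM_BAL and 11.76 in F480 posi_BAL, against 2.45 in MP_BAL and 6.20 in mSR1dullCC1dull_BAL. C1qc read 10.85 and 11.74 against 2.87 and 5.27 in the same order. The genes C1qa, C1qc and C1qb, whose starts are printed above for C1qb and C1qc, are direct neighbours on chromosome 4. C3ar1, the receptor for the complement fragment C3a, read 11.46 and 11.89 against 4.38 and 6.87. In these genes MP_BAL was lowest and mSR1dullCC1dull_BAL in between.

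Lipoprotein genes were part of the group. Apoe read 11.10 in SatM_BAL and 13.15 in F480 posi_BAL, against 5.81 in MP_BAL and 4.77 in mSR1dullCC1dull_BAL. Apoc2, the activator of lipoprotein lipase, read 10.72 and 11.60 against 7.54 and 5.03. Ecm1, an extracellular matrix protein, read 10.44 and 11.48 against 7.13 and 4.68. In Apoe, Apoc2, Ecm1 and Arg1 the lowest sort was mSR1dullCC1dull_BAL and not MP_BAL. Apoe and Apoc2 lie on chromosome 7 with 2 coding genes between them.

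By their level in mSR1dullCC1dull_BAL the 19 genes fell into classes. The rule had fixed MP_BAL as low and SatM_BAL and F480 posi_BAL as high in them, and left only mSR1dullCC1dull_BAL free. In 8 of them (the 3 C1q genes, C3ar1, Arg1, Apoe, Apoc2 and Ecm1) it lay 3 or more below both SatM_BAL and F480 posi_BAL. Over all genes, SatM_BAL was 3 or more above mSR1dullCC1dull_BAL in 1.74% and F480 posi_BAL in 2.72%. The shares over all genes given here include genes under 10, so they are no like background for these 19. In 9 others mSR1dullCC1dull_BAL lay 3 or more above MP_BAL (4.39% of all genes), so that MP_BAL, low by the rule, was the only low sort. These were Ccr2, the receptor that brings monocytes into tissue (7.03 in MP_BAL, 13.0002 in SatM_BAL, 11.53 in mSR1dullCC1dull_BAL, 11.78 in F480 posi_BAL), the calcium-binding S100a4 (7.90, 13.98, 14.17, 13.41) and S100a6 (8.99, 13.24, 13.30, 13.06), the class II chain H2-Eb1 (9.30, 14.22, 14.45, 12.65), the antiviral Ifitm3 (7.49, 12.09, 12.60, 11.39), Ly86, the partner of the Toll-like receptor relative RP105 (8.08, 12.21, 12.06, 11.90), and Fyb, Crip1 and AA467197. Rai14 and Ckap4, the remaining 2, had mSR1dullCC1dull_BAL values of 7.87 and 9.52 between the other levels.

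The C1q-type list holds 6 member genes, so it is given with and without them. Of 27 measured C1q-type tissue macrophage genes, 19 had a range of 3 or more (10.6% of all genes). F480 posi_BAL was the highest in 12 of them (1.64% of all genes), SatM_BAL in 3 (0.892%), and MP_BAL and mSR1dullCC1dull_BAL in 2 each. F480 posi_BAL was 3 or more above MP_BAL in 12 of the 27 (1.4% of all genes) and SatM_BAL in 9 (2.03%). Without the members, 13 of 21 had a range of 3 or more, F480 posi_BAL was the highest in 7 and SatM_BAL in 2, and the counts above MP_BAL were 6 and 4. Maf, a factor of tissue macrophages, read 11.14 in F480 posi_BAL, 9.08 in SatM_BAL, 5.98 in mSR1dullCC1dull_BAL and 5.12 in MP_BAL. Aif1 read 9.80, 10.30, 10.54 and 3.62, low in MP_BAL alone. Mertk, an uptake receptor for dying cells, read 9.25, 7.97, 2.30 and 9.85, and so did not follow C1q. Cd163, Lyve1 and Vsig4, which mark some resident macrophages, were at 2.91 or less in all 4 sorts.

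Of 14 measured classical monocyte genes, 10 had a range of 3 or more (10.6% of all genes), and SatM_BAL was the highest in 6 (0.892%). Without its 3 member genes the list kept 7 of 11, with SatM_BAL the highest in 4. F13a1, a clotting factor subunit of monocytes, read 10.74 in F480 posi_BAL, 8.73 in SatM_BAL, 2.86 in mSR1dullCC1dull_BAL and 2.40 in MP_BAL. The monocyte-attracting chemokines Ccl2, Ccl7 and Ccl12 read 9.12, 6.10 and 7.31 in SatM_BAL and 10.54, 7.95 and 8.81 in F480 posi_BAL, against 4.01 or less in MP_BAL and mSR1dullCC1dull_BAL. The whole cytokine and chemokine list was mixed: of 24 measured genes, 10 had a range of 3 or more (10.6% of all genes). F480 posi_BAL was the highest in 4 (1.64%), mSR1dullCC1dull_BAL in 3 (4.62%), MP_BAL in 2 (3.43%) and SatM_BAL in 1 (0.892%). Without the member gene Ccl5, mSR1dullCC1dull_BAL was the highest in 2 of 23. Stab1, a scavenger receptor, read 8.74 and 9.04 in SatM_BAL and F480 posi_BAL against 2.30 and 2.35 in MP_BAL and mSR1dullCC1dull_BAL. The Ly6C genes, which would show the classical monocyte most directly, were not measured apart.

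Since the SatM label names fibrosis, the fibrosis-associated list was read gene by gene. Of 22 measured genes, none of them a member, 14 had a range of 3 or more (10.6% of all genes). F480 posi_BAL was the highest in 8 (1.64% of all genes), SatM_BAL in 3 (0.892%), MP_BAL in 2 (3.43%) and mSR1dullCC1dull_BAL in 1 (4.62%). The list medians were 9.34 in F480 posi_BAL, 7.83 in SatM_BAL, 6.99 in MP_BAL and 6.01 in mSR1dullCC1dull_BAL. Mmp12, the macrophage elastase, read 12.31 in SatM_BAL, 11.36 in F480 posi_BAL, 10.52 in mSR1dullCC1dull_BAL and 8.87 in MP_BAL. Fn1, fibronectin, read 13.16, 12.85, 7.96 and 11.40 in that order. Pdgfa, a growth factor for fibroblasts, read 8.94, 9.45, 4.81 and 3.91, and Thbs1, a matrix protein that can activate TGF-beta, read 7.42, 9.22, 2.72 and 2.36. Both were shared by SatM_BAL and F480 posi_BAL, while Gpnmb (9.99, 13.17, 4.32, 11.51) and Igf1 (5.55, 9.80, 2.30, 9.71) were higher in F480 posi_BAL and MP_BAL than in SatM_BAL. Tgfb1 ranged over less than 3.

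**Figure D3:**
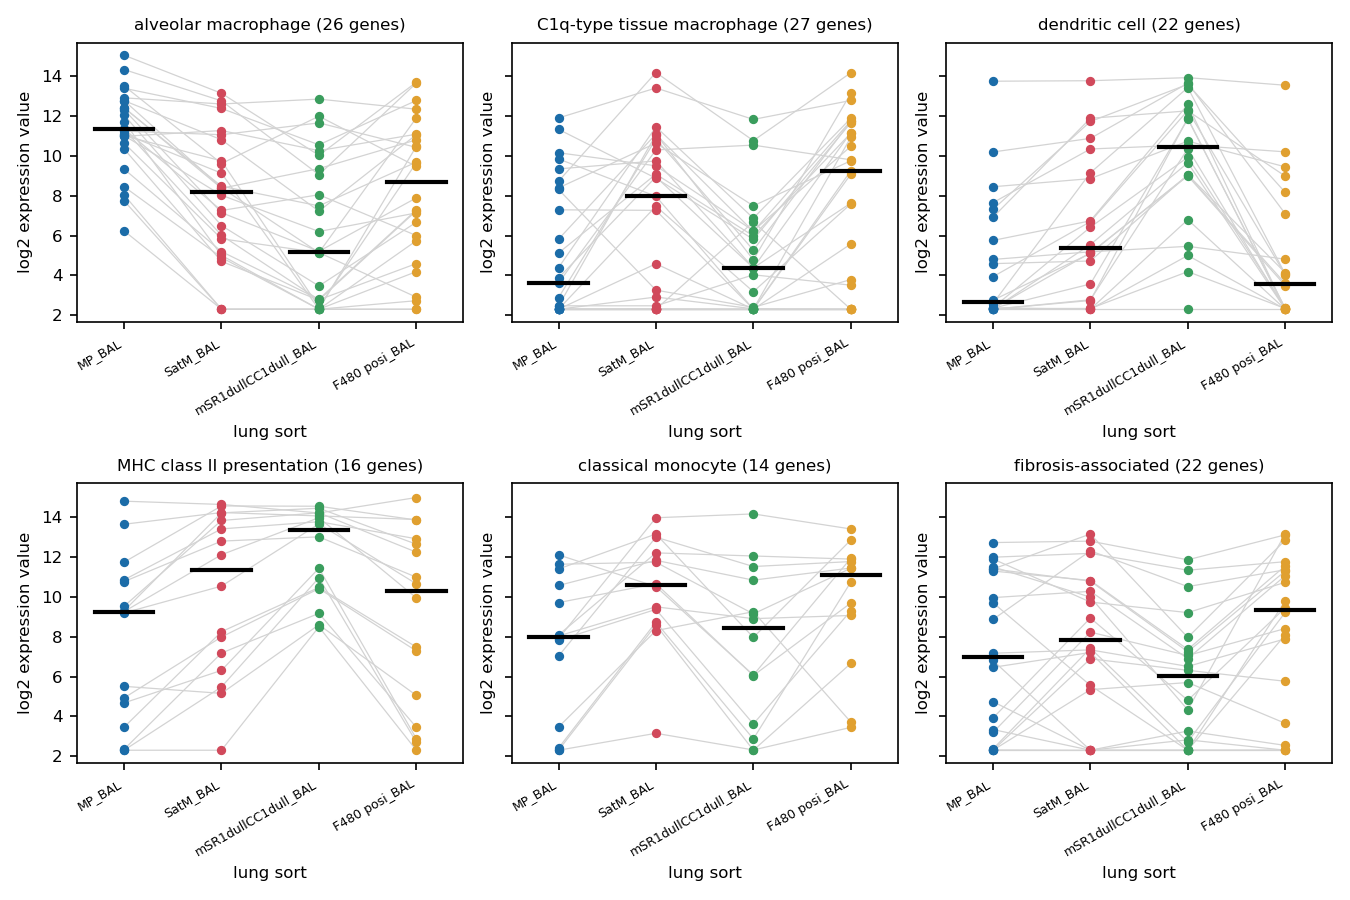
Log2 values of the genes of 6 lists on the 4 lung arrays, with a point per gene, grey lines joining the same gene and black bars at the median. The alveolar macrophage list is highest in MP_BAL (11.34), the dendritic cell list in mSR1dullCC1dull_BAL (10.46), and the C1q-type list in F480 posi_BAL (9.25), followed by SatM_BAL (7.97). These lists include member genes, and without them the same medians were 11.24, 9.35, 7.59 and 4.58.

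F480 posi_BAL had a single gene of its own. Ms4a7, a membrane protein of tissue macrophages, read 10.93 there, 7.29 in MP_BAL, 7.26 in SatM_BAL and 2.30 in mSR1dullCC1dull_BAL, and 1 of its 2 probe sets showed the difference. The genes just outside the gap of 3 were Slc11a1, an iron and manganese transporter of phagosomes (gap 2.84), Hpse, heparanase (2.44), and Cd93 (2.36). Slc36a2 (2.19), Maf (2.06), Apoe (2.05), F13a1 (2.01) and Arg1 (1.87) followed. Some genes were high in F480 posi_BAL and MP_BAL together. Abca1, which exports cholesterol, read 9.60 and 9.06 in these sorts against 7.97 in SatM_BAL and 4.14 in mSR1dullCC1dull_BAL, and Hmox1, heme oxygenase, read 11.66 and 11.33 against 8.88 and 5.81. Of 23 measured lipid handling genes, 12 had a range of 3 or more (10.6% of all genes). MP_BAL was the highest in 8 of them (3.43%) and F480 posi_BAL in 4 (1.64%). Apoe and Apoc2 on this list are members chosen for being high in F480 posi_BAL. Without these members, 10 of 21 had such a range, with MP_BAL the highest in 8 and F480 posi_BAL in 2. Fabp3 was at 9.07 in F480 posi_BAL and at 5.17 or less in the other 3.

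SatM_BAL had no gene of its own, although 1905 of its genes lay at 10 or more. The nearest were Ccr2, with a gap of 1.23 over F480 posi_BAL, Rasgrp1, an activator of Ras, with 1.22 over mSR1dullCC1dull_BAL (2.30, 10.17, 8.95 and 8.63 in MP_BAL, SatM_BAL, mSR1dullCC1dull_BAL and F480 posi_BAL), Zfhx3 with 1.15, Rprd2 with 0.99 and Mmp12 with 0.95. Just outside the other gaps lay Cd2, a shade under 3 in MP_BAL (11.02 against 8.03 in SatM_BAL), Tbc1d8 with 2.96 in mSR1dullCC1dull_BAL, and Rgs10 with 2.83 in the shared group.

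The place of SatM_BAL was counted over 2535 genes at 10 or more in at least 1 lung array. For each gene, 2 of the 4 sorts lie between the highest and the lowest. SatM_BAL lay between in 1876 genes (74.0%), F480 posi_BAL in 1517, MP_BAL in 1058 and mSR1dullCC1dull_BAL in 619. Among 959 genes that differed by 3 or more between MP_BAL and mSR1dullCC1dull_BAL, SatM_BAL lay between these in 655 (68.3%). Among 708 that differed so between F480 posi_BAL and mSR1dullCC1dull_BAL it lay between in 530 (74.9%) and nearer F480 posi_BAL in 571. Among 351 that differed between MP_BAL and F480 posi_BAL it lay between in only 144 (41.0%) and nearer F480 posi_BAL in 317. A sort that mixes the other populations and one whose cells hold middle levels cannot be told apart from 1 bulk array.

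**Figure D4:**
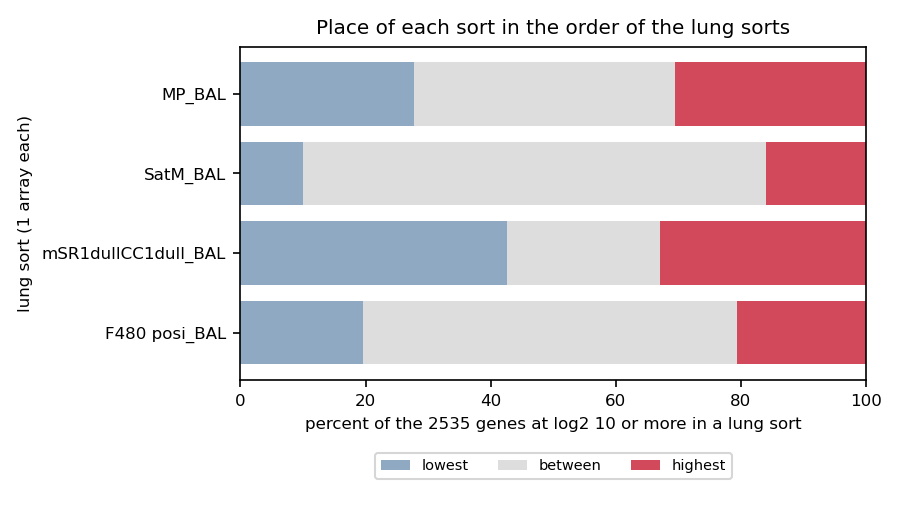
Percent of the 2535 genes at log2 10 or more in at least 1 lung array in which each sort was the lowest (blue), between (grey) or the highest (red), as stacked bars. SatM_BAL lay between in 74.0% and was the highest in 405 genes, while mSR1dullCC1dull_BAL was the lowest in 42.6%.

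SatM_BAL and F480 posi_BAL were the closest pair, with a correlation of 0.960 over 4559 genes, and 86 genes differed by 3 or more, 51 higher in SatM_BAL (0.441%) and 35 in F480 posi_BAL (0.303%). Of 506 genes on any list, 13 were higher in SatM_BAL by that much and 10 in F480 posi_BAL. Those higher in SatM_BAL included genes that mSR1dullCC1dull_BAL held higher still: Dpp4, the chemokine Ccl17 (11.73 in SatM_BAL, 8.17 in F480 posi_BAL, 13.60 in mSR1dullCC1dull_BAL), the actin bundler Fscn1 (10.88, 7.09, 13.65), the lectin Mgl2 (8.70, 4.60, 10.20) and the cytokine Il1b (10.01, 6.79, 11.29). Those higher in F480 posi_BAL included Pf4, platelet factor 4 (9.08 against 4.58), Igf1, Gpnmb, Atp6v0d2 and Gas6, a ligand of Mertk (5.70 against 2.30). The part of cells from the neighbouring gates in these values was not tested.

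The members were then read outside the lung. Of the 14 MP_BAL genes, 9 (64.3%) were under 10 on all 31 other arrays, as were 89 of the 1922 genes at 10 or more in MP_BAL (4.63%). Vstm2a, Krt19, Car4, Flvcr2 and Slc39a2, 5 of the 14, were under 3 on all of them, as were 7 of the 1922 (0.364%). Siglecf was higher in eosinophils, at 12.16, and Prom1 reached 11.55 in the mSR1dullCC1dull sort of bone marrow. Arg1 was under 3 on 30 of the 31 arrays, and its highest value was 7.53, in SatM of the spleen. Rai14 reached 6.93 at most. The C1q genes were highest, outside the lung, in M2-like macrophages of the marrow, with C1qa at 12.56, C1qc at 12.82 and C1qb at 14.65, above both lung sorts in each case.

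Part of the mSR1dullCC1dull_BAL genes were also high in another sort. Of the 44, 21 (47.7%) had their highest value outside the lung in the spleen cells negative for Msr1 and Ceacam1, as did 96 of the 1873 genes at 10 or more in mSR1dullCC1dull_BAL (5.13%). The group median there was 10.38, with 25 of the 44 at 10 or more. The share of the 1873 genes at that level in the spleen array is not given here, so this count has no background. Ccr7 read 11.29 in that spleen array, Flt3 9.66, Zbtb46 11.38 and Nr4a3 13.28. Itgae did not follow, with a highest value outside the lung of 6.62, in SMP. Ccl22 had its highest value outside the lung in that spleen array, but at only 5.82.

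Over the 4559 genes at 10 or more on any array, SatM_BAL was nearer the other lung sorts than the SatM of other tissues. Its correlation was 0.873 with MP_BAL, 0.848 with mSR1dullCC1dull_BAL, and 0.722 to 0.748 with the 5 SatM arrays of marrow, blood and spleen. The nearest array outside the lung was an inflammatory monocyte array, at 0.814. For mSR1dullCC1dull_BAL it was the spleen sort negative for Msr1 and Ceacam1, at 0.796. These correlations are across genes of single arrays and are descriptions. Tissue, collection and preparation differ together between the lung and the other arrays and cannot be told apart. The 19 shared genes had a median of 11.46 in SatM_BAL, 11.08 in SatM of the spleen and 10.83 in SatM of the blood. In the marrow it was 10.81 in the array titled SatM_BM and 9.71 in the other 2 SatM arrays. The other Ly6C-negative cells had 11.22 in blood and 10.86 in spleen.

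**Figure D5:**
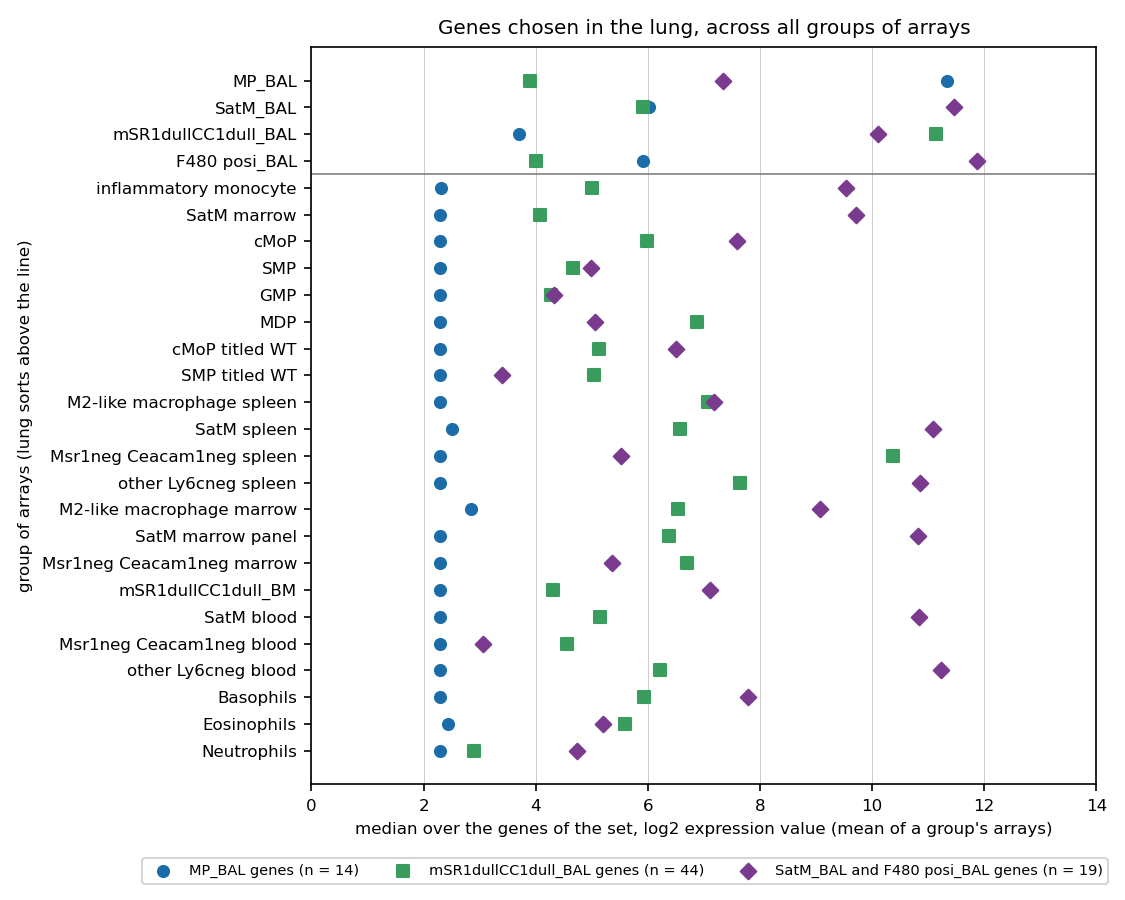
Median log2 value over the genes of 3 member groups (circles, squares and diamonds), in each group of arrays of the series, with the lung sorts above the line. The MP_BAL genes have a median of 11.34 in MP_BAL and of 2.85 or less in all groups outside the lung, while the mSR1dullCC1dull_BAL genes reach 10.38 in the spleen cells negative for Msr1 and Ceacam1.

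Other settings moved the counts. With a gap of 2, MP_BAL had 27 genes, mSR1dullCC1dull_BAL 75, F480 posi_BAL 8 and SatM_BAL 0. Of the 22 mSR1dullCC1dull_BAL members with several probe sets, 8 had a probe set with no gap above 0, Zbtb46 and Nr4a3 among them. In Adam23, Tbc1d4 and Marcksl1 the lowest probe set gap was 2.25, 2.54 and 1.37, above 0 but short of 3. With the mean of all probe sets of a gene, mSR1dullCC1dull_BAL had 28 genes set apart in place of 44, and the gap of Zbtb46 went from 5.58 to 3.46. A close pair of sorts can hide genes of either: without F480 posi_BAL, SatM_BAL had 10 genes of its own and MP_BAL 30. Without SatM_BAL, F480 posi_BAL had 15 and mSR1dullCC1dull_BAL 72. Without MP_BAL, F480 posi_BAL had 5, and without mSR1dullCC1dull_BAL, SatM_BAL had 2. These last alternatives were chosen after seeing the data.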

How the data were processed

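Total RNA of flow-sorted cells was measured on Affymetrix Mouse430_2 arrays. Per probe set, the authors deposited 1 log2 level for each array, made by a method not given in the sources used here. That the base is 2 was inferred from the range, 2.30 to 16.02. The precision is limited by the number of arrays, 1 per sort.

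Of 45101 probe sets, 64 controls, 932 with several gene symbols and 9147 unnamed here were left out. Symbols of 34754 were updated through Entrez identifiers to RefSeq GRCm38.p6. Where a gene had several probe sets, the one whose 35 values had the highest mean stood for it, giving 18193 genes. The single missing value, of Golga7, stayed missing. Genes at the floor (within 0.01) in all 4 lung arrays were left out, which left 11553.

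Groups came from the sample titles. No test was run. The members, the 32 gene lists (633 entries, 578 measured) and their thresholds were chosen with earlier results of these data known. The genes named were the 30 members of each group with the largest gap, members on a list, those next to the threshold, the marker and sort genes, and list genes with a lung range of 3 or more. List genes with a smaller range and a few members of lesser gap were added after their values were seen. Alternatives were another level or gap, other probe set choices, quantile normalisation, upper quartile scaling and leaving out each array. Counting was tested on simulated data. Python 3.11.15, numpy 2.4.6, pandas 2.3.3 and matplotlib 3.10.9 were used.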

Additional observations from a re-analysis of the deposited data

Results flagged for a closer look

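The lung arrays titled SatM_BAL and mSR1dullCC1dull_BAL have counterparts by title in the marrow, SatM_BM and mSR1dullCC1dull_BM. Over the 4559 genes used above, the correlation was 0.722 between the SatM arrays. It was only 0.542 between the mSR1dullCC1dull arrays, below the 0.602 of mSR1dullCC1dull_BAL with GMP. Whether the mSR1dullCC1dull sorts hold the same kind of cell in both tissues was not tested. For 9 of 82 named genes the difference of mSR1dullCC1dull minus SatM had opposite signs of 3 or more in the 2 tissues, and this difference between tissues was not tested. All 9 belong to the 44 genes chosen for being 3 or more above SatM_BAL, so the rule fixed their sign in the lung. Of all 271 genes that were 3 or more higher in the lung mSR1dullCC1dull array, 21 (7.75%) had the opposite sign by that much in the marrow. Cd83 was higher by 3.12 in the lung and stood at -10.46 in the marrow. Nr4a3 stood at 4.87 and -8.29, Ifitm1 at 6.21 and -6.39, and Slc14a1 at 7.66 and -5.07. Traf1 stood at 5.27 and -5.01, and Ccl5 at 5.90 and -4.77. The remaining 3 were Dpp4 at 4.28 and -3.81, Eno3 at 4.63 and -3.61, and Mex3b at 3.23 and -3.46. Of the 44 genes, 2 were 3 or more higher in the marrow mSR1dullCC1dull array as well, and the share over all genes is not given here. The marrow has 2 further SatM arrays, titled SatM_1 and SatM_2. Set against their mean, 7 of the 9 genes stayed at -3 or below, while Ccl5 stood at 1.66 and Nr4a3 at 0.62. This comparison was chosen after seeing the data.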

How the results depend on the processing

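No paired analysis was possible because each lung sort had 1 array and no test was run. The MP_BAL group of 14 genes held 30 at a level of 9, 8 at a level of 11 and 27 at a gap of 2. The mSR1dullCC1dull_BAL group of 44 held 69, 25 and 75 under these settings, 29 at a gap of 4, 28 with the mean of the probe sets and 25 with every probe set. F480 posi_BAL had 3 genes at a level of 9, 8 at a gap of 2 and 0 at a level of 11, at a gap of 4, with the mean of the probe sets and with every probe set. The shared group of 19 held 35 at a level of 9, 31 at a gap of 2, 11 at a gap of 4, 0 with MP_BAL at the floor and 8 with mSR1dullCC1dull_BAL also 3 below. Leaving out 1 other lung array at a time gave 15 to 30 genes for MP_BAL, 0 to 10 for SatM_BAL, 44 to 72 for mSR1dullCC1dull_BAL and 1 to 15 for F480 posi_BAL.

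At a gap of 2, the pairs differed in 896 genes (MP_BAL and SatM_BAL), 1697 (MP_BAL and mSR1dullCC1dull_BAL), 682 (MP_BAL and F480 posi_BAL), 939 (SatM_BAL and mSR1dullCC1dull_BAL), 265 (SatM_BAL and F480 posi_BAL) and 1316 (mSR1dullCC1dull_BAL and F480 posi_BAL). With the mean of the probe sets, MP_BAL differed from SatM_BAL in 309 and from F480 posi_BAL in 229, and SatM_BAL from F480 posi_BAL in 50. The gap of Car4, 5.38, was 5.66 with the mean of the probe sets, 5.33 after quantile normalisation and 5.41 after upper quartile scaling, and that of Zbtb46 was 3.46 with the mean of the probe sets. The cause of these shifts was not tested, beyond the settings themselves. In all, 33 of the planned values were labelled as moved and 50 were not, as were 6 and 7 of those added after seeing the data. Values not labelled as moved were not all unchanged. The count of SatM_BAL and mSR1dullCC1dull_BAL went from 472 to 320 with the mean of the probe sets, without that label. A marker gap was labelled by the spread of the duplicate arrays elsewhere. For Car4 this spread was 0, so its small shifts were labelled as moved.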

Other observations

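None of the 27 measured cell cycle genes had a range of 3 or more over the lung sorts, against 10.6% of all genes, although their median range of 1.20 was above the 0.88 of all genes. The proliferation marker Mki67 read 9.76 in MP_BAL, 8.98 in SatM_BAL, 9.03 in mSR1dullCC1dull_BAL and 9.68 in F480 posi_BAL. The count was also 0 of 21 for oxidative phosphorylation and citric acid cycle genes (median range 0.63) and 0 of 16 for cholesterol synthesis (1.23). Spi1, the gene of PU.1, read 8.19 to 8.86, while Cebpb read 5.19 in mSR1dullCC1dull_BAL and 8.58 to 9.26 in the other 3.

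Of 21 measured interferon-stimulated genes, 3 (14.3%) had a range of 3 or more, near the 10.6% of all genes. They were Mx1 (7.94 in MP_BAL, 10.16 in SatM_BAL, 11.68 in mSR1dullCC1dull_BAL and 9.35 in F480 posi_BAL), Usp18 (5.66, 8.51, 9.79 and 8.38) and Oasl1 (2.32, 4.36, 5.80 and 4.52). The early-response factor Egr1 read 7.70, 10.95, 12.46 and 9.53 in the same order. In each of these genes MP_BAL was the lowest sort. Scd1, a fatty acid desaturase, had another order, with 11.40, 7.82, 9.45 and 6.57.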
